A study of Mus musculus with 8 samples.

Results

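The 5 precursors described here are mmu-mir-26a-1, mmu-mir-26a-2, mmu-mir-26b, mmu-mir-101a and mmu-mir-101b (mmu for mouse, left out in most of what follows), picked by name from the 1181 miRNA precursors of the deposited table. All 5 were found and all 5 passed the filter on low values, which kept 359. Myoblasts, the dividing cells that give rise to muscle fibres, were taken from old and young C57BL/6J mice. Their small RNA was sequenced in 4 old and 4 young libraries. The titles number the libraries (old 1 to old 4, young 1 to young 4), and the labels name no pooling. Each library is taken here to come from its own mouse, which is an assumption. The labels name no genetic change and no treatment, give the ages only as old and young, and do not say how the myoblasts were isolated or grown.

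miR-26 and miR-101 are short RNAs that guide Argonaute proteins to messenger RNAs with a matching site, which are then degraded or less translated. Both families are known for repressing Ezh2, the enzyme of the Polycomb repressive complex that methylates histones and keeps muscle genes silent in dividing myoblasts. miR-26a rises when cultured myoblasts differentiate and is also known to repress Smad1 and Smad4 in regenerating muscle, and miR-101 is best known for loss in tumours with high EZH2. The miR-26 precursors lie in introns of the genes of small C-terminal domain phosphatases, which are transcribed with them.

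The mature sequences are shown because they decide which reads can be told apart and which targets are matched. They are RefSeq's (GRCm38.p6), written 5′ to 3′ with the seed, bases 2 to 8, in capitals.
miR-26a-5p: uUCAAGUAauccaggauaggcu
miR-26b-5p: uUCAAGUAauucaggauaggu
miR-101a-3p: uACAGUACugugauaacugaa
miR-101b-3p: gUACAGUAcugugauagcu
miR-26a-5p and miR-26b-5p were the 2 names with the seed UCAAGUA among 1679 mature names of the RefSeq table. They differed at 2 of 21 compared bases, C11U and C21U, counted from the 5′ end of miR-26a-5p. miR-101a-3p and miR-101b-3p differed at 1 of 18 compared bases, A16G, counted from the 5′ end of miR-101a-3p. RefSeq starts miR-101b-3p 1 base earlier, so that its seed reads UACAGUA where that of miR-101a-3p reads ACAGUAC, although both stretches are in both miRNAs.

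The hairpins of both miR-26a genes are shown because they give the same mature miRNA, here in capitals, from different flanks.
mir-26a-1: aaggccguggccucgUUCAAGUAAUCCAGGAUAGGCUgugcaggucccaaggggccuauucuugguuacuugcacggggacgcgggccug
mir-26a-2: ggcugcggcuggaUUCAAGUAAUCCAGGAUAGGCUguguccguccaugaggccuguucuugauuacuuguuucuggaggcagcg
mir-26a-1 spans 90 bases at chr9:119031796-119031885 (plus strand, GRCm38) in an intron of Ctdspl. mir-26a-2 spans 84 bases at chr10:126995530-126995613 (plus strand) in an intron of Ctdsp2. mir-26b spans 85 bases at chr1:74394310-74394394 (plus strand) in an intron of Ctdsp1. mir-101a spans 83 bases at chr4:101346945-101347027 (minus strand) and overlaps an exon of the long noncoding RNA E130102H24Rik. mir-101b spans 97 bases at chr19:29135279-29135375 (plus strand) in an intron of Rcl1, a gene of ribosomal RNA processing.

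The 3′ UTR of Ezh2 holds matches to both seeds, shown here as DNA of the transcript strand with the match in capitals. The sequences are from the GENCODE vM21 transcripts, on the minus strand of GRCm38.
Ezh2 miR-26 match, chr6:47530286-47530308: aatttgaataaagaaTACTTGAa
Ezh2 miR-101a match, chr6:47530475-47530497: cttcaggaaccttgaGTACTGTg
Ezh2 miR-101a match, chr6:47530420-47530442: ttctgaatttgcaaaGTACTGTa
The 402 bases of this UTR held 1 match to the miR-26 seed (TACTTGA) and 2 to the miR-101a seed (GTACTGT). The match to the miR-101b seed (TACTGTA) overlapped the latter of these by 6 bases. Only the transcript strand was searched. Of 15300 protein-coding genes with a 3′ UTR of at least this length, 2.85% held TACTTGA in its first 402 bases, 2.71% held GTACTGT and 3.33% held TACTGTA. A match is a description of the letters, and Ezh2 RNA was not measured in these libraries.

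Both miR-26a precursors list nearly equal numbers of reads. In old 1 to old 4, mir-26a-1 minus mir-26a-2 was -0.07, -0.12, -0.09 and -0.12 on the log2 scale, and for young 1 to young 4 it was -0.10, -0.09, -0.09 and -0.09. The log2 ratio of their lengths alone gives -0.10. The values step like reads per kilobase of hairpin in a library of given size (RPKM), and read in this way the copies differed by 0.032% (17317 and 17323 reads in young 1) to 2% (19908 and 19505 in old 1). In old 1, old 2 and old 4 the gap is more than rounding to 2 decimals allows, so the entries are not copies of each other. Reads of the shared mature sequence cannot be given to Ctdspl or Ctdsp2, and whether the authors' counting listed such reads under both copies or divided them is not given in the sources used here. Arms of a hairpin are not separated in the table either.

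By their listed values, miR-26 was abundant in these myoblasts and miR-101 was scarce. mmu-mir-26a-1 read 12.95, 13.33, 13.06 and 13.65 for old 1 to old 4 and 12.65, 13.81, 12.77 and 13.63 for young 1 to young 4 (deposited log2 abundance, per length). Among the 359 compared precursors its rank by level lay between 42 and 64 in every library. mmu-mir-26b read 11.37, 11.47, 11.33 and 11.65 in old mice and 11.20, 11.15, 10.53 and 11.86 in young mice, at ranks between 72 and 104. The old libraries of mir-26b lay close together, young 3 was the lowest library and young 4 the highest. mmu-mir-101b read 6.25, 6.26, 6.59 and 7.33 in old mice and 6.23, 6.84, 6.55 and 7.83 in young mice. Old 4 and young 4 were the highest libraries of their groups for mir-101b, and its ranks lay between 182 and 221. mmu-mir-101a read 4.54, 5.16, 4.83 and 5.09 in old mice and 3.89, 5.62, 4.08 and 5.39 in young mice, at ranks between 235 and 295. Its 4 young libraries included both the lowest and the highest values, so that all old libraries lay between them.

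**Figure D1:**
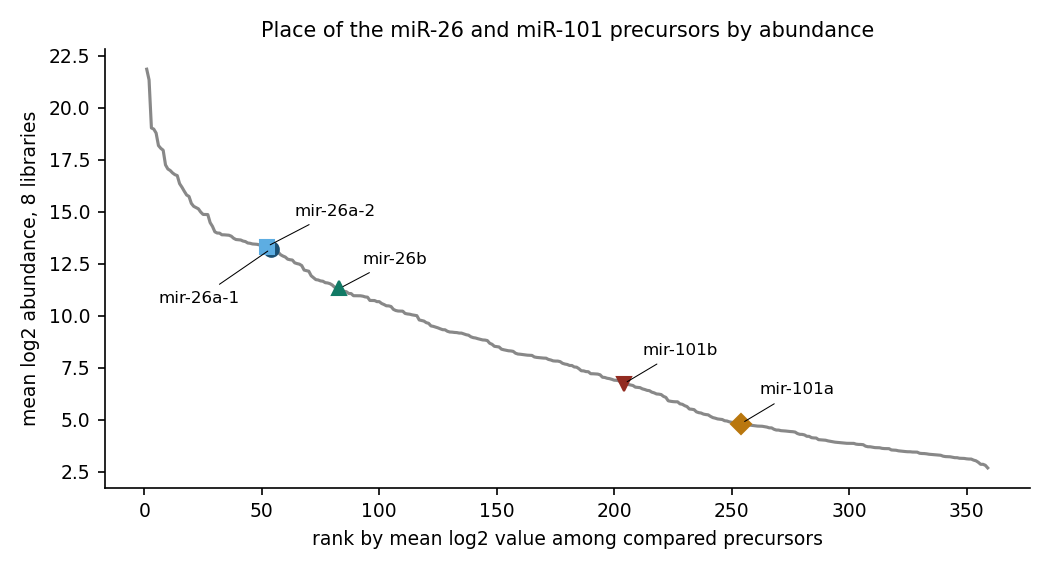
Mean deposited log2 abundance over 8 libraries (y axis) of the 359 compared precursors in order of abundance (x axis, rank), with the 5 precursors marked. Both mir-26a copies stand at ranks 54 and 52 and mir-26b at 83, while mir-101b stands at 204 and mir-101a at 254.

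The order of the levels per length was the same in every library: miR-26a, then mir-26b, mir-101b and mir-101a. mir-26a-1 exceeded mir-26b by 2.73 to 6.32 times, and mir-101b exceeded mir-101a by 2.14 to 5.54 times. mir-26a-1 stood 55.7 to 134 times above mir-101b and 288 to 434 times above mir-101a. mir-26b exceeded mir-101b by 15.8 to 37.0 times. All of these are ratios of sequencing values, and how closely they follow ratios of molecules was not tested. Those for miR-26a take mir-26a-1 by itself. With both copies summed, as would hold if reads were divided between them, miR-26a exceeded mir-26b by 5.66 to 13 times, mir-101b by 115 to 280 times and mir-101a by 601 to 898 times. The copies differed from what their lengths give by 0.03 or less on the log2 scale. The 3 miR-26 precursors held 99.1% to 99.5% of the summed linear value of the 5 as listed, both copies of miR-26a included. A further precursor of the family that is not among the 5, mir-101c on chromosome 9, was listed at 0 in 7 libraries and at 0.04 in old 2, which corresponds to 2.0 reads. The counts behind the scarce members were small but not at the floor: mir-101a held 36.8 to 137.3 reads per library and mir-101b 193.3 to 870.8, against 4111 to 12465 for mir-26b. For the lowest of these, rounded to 37 reads, the exact Poisson interval is 26.1 to 51.0 reads (95%), which covers counting error only.

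None of the 5 precursors differed between old and young myoblasts by more than the spread between mice. In limma, with p-values adjusted by Benjamini-Hochberg over all 359 precursors, 0 of the 5 passed a threshold of 0.05, against 0% of all compared precursors. At an unadjusted p under 0.05 the counts were 0 of 5 and 1.11% of all (4 of 359). Old and young values overlapped for all 5, and 0.836% of all compared precursors had groups that did not overlap. Of the 5, 4 had a higher mean in old mice and 1 a lower one, with a median difference of 0.04, beside 165 higher, 194 lower and a median of -0.05 over all 359. The adjusted p was 0.995 for each of the 5 precursors.

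**Figure D2:**
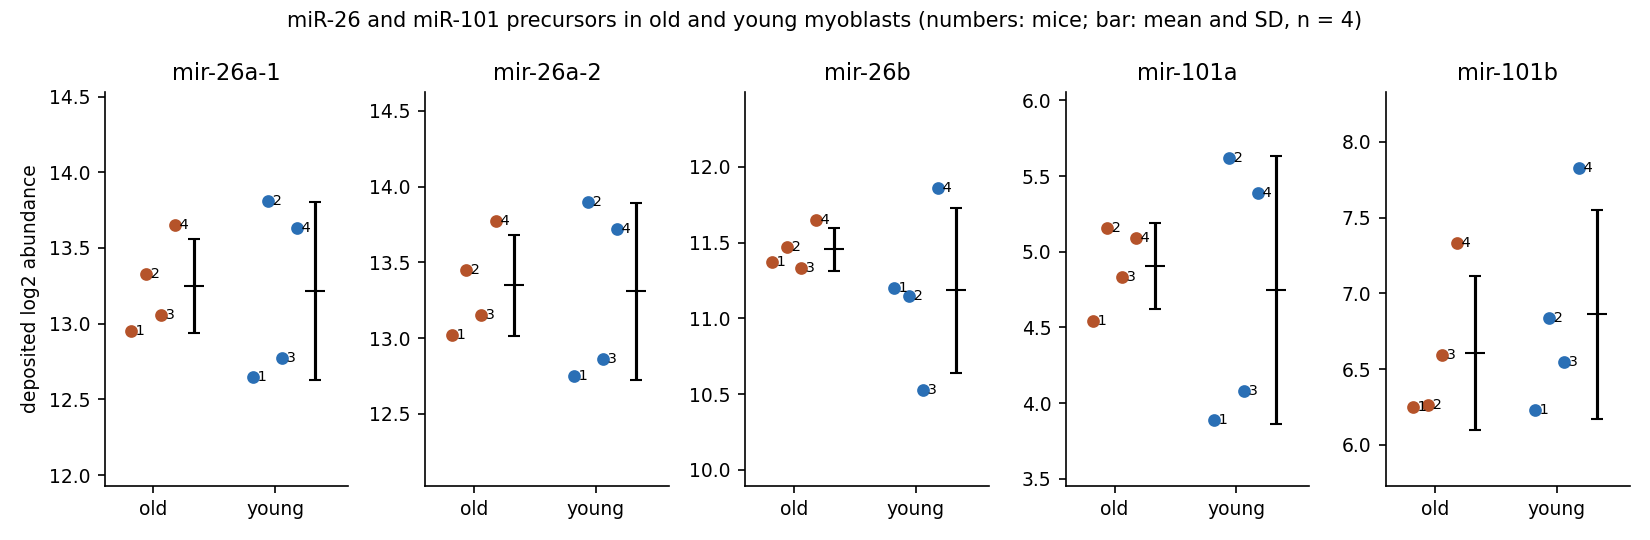
Deposited log2 abundance (y axis; the span is equal in all panels) of each precursor in old and young libraries; points are libraries with the number of the mouse, bars the mean and SD (n = 4). Old and young points overlap in all 5 panels, and the young libraries are the more spread out.

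mir-26a-1, the more abundant family's main form together with its copy, averaged 13.25 ± 0.31 in old mice and 13.21 ± 0.59 in young mice (SD, n = 4 each). The difference, old minus young, was 0.03 with an SE of 0.35 (limma) and 95% limits of -0.76 and 0.83, or 0.59 to 1.77 times (two-sided exact permutation p = 0.943). mir-26a-2 averaged 13.35 ± 0.33 and 13.31 ± 0.59, which differ by 0.04 (SE 0.36). The sign of these differences rested on single libraries. It turned to -0.10 for mir-26a-1 without old 4, to -0.16 without young 1 and to -0.12 without young 3, and likewise for mir-26a-2 (-0.10, -0.15 and -0.11).

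mir-26b, which shares the seed of miR-26a, averaged 11.46 ± 0.14 in old mice and 11.19 ± 0.54 in young mice. The difference was 0.27 with an SE of 0.34 and limits of -0.48 and 1.02 (0.72 to 2.03 times; exact permutation p = 0.429, two-sided). It was positive in every alternative run. The filters, fit without a trend, replicate block and averaged miR-26a copies leave it at 0.27 by construction and cannot speak to its sign. Pseudocounts of 1 and 10 also gave 0.27, since they can hardly move values as high as those of mir-26b. The difference was 0.05 without young 3, 0.49 without young 4 and 0.47 after rescaling each library to its total less mir-486 and mir-3107 (adjusted p = 0.919 in limma). That rescaling moved the median of all compared precursors from -0.05 to 0.14. It uses 1 factor per library and so shifts all differences equally. The place relative to the median, 0.32 for mir-26b, therefore cannot change under it. The same rescaling took mir-26a-1 from 0.03 to 0.23, mir-101a from 0.16 to 0.36 and mir-101b from -0.26 to -0.06. Relative to the median these are at 0.09, 0.21 and -0.20 under both scalings, for the same reason. Quantile normalization gave 0.07 for mir-26a-1, 0.39 for mir-26b, 0.34 for mir-101a and -0.05 for mir-101b, beside a median of 0.09, so that mir-26a-1 then lay at -0.02 relative to it.

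mir-101a averaged 4.905 ± 0.28 in old mice and 4.745 ± 0.89 in young mice, which differ by 0.16 with an SE of 0.52 and limits of -1.0 and 1.32 (exact permutation p = 0.771, two-sided). Changes of 0.50 to 2.50 times lie between those limits. Without young 1 the difference was -0.13, without young 3 it was -0.06, and without young 2 it was 0.45. mir-101b was the only one of the 5 with a lower mean in old mice, at 6.607 ± 0.51 against 6.862 ± 0.69. Its difference was -0.26 with an SE of 0.47 and limits of -1.31 and 0.80 (0.40 to 1.75 times; exact permutation p = 0.629, two-sided). Without young 4 the difference was 0.07. With 4 against 4 libraries no exact permutation p can be below 0.0286.

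**Figure D3:**
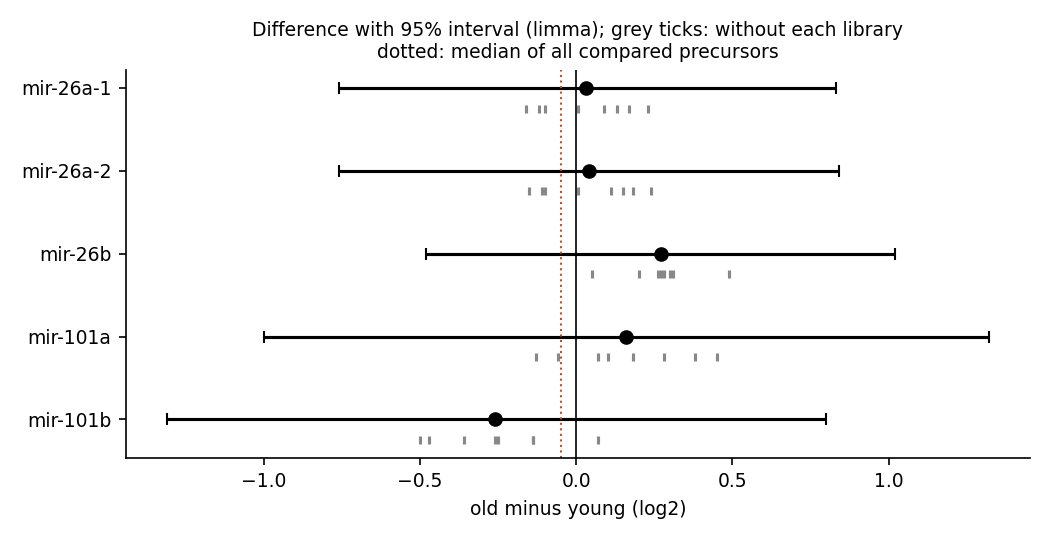
Difference old minus young on the log2 scale (x axis) of each precursor with its 95% interval from limma; grey ticks are the values without each library in turn, and the dotted line is the median of all compared precursors. All 5 intervals span 0, and the ticks of mir-26b alone stay on 1 side of it, from 0.05 to 0.49.

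The young libraries were more spread out than the old ones for all 5 precursors, such as mir-26b with SDs of 0.54 and 0.14. Over all 359 precursors the young SD was the larger one in 239 (66.6%). The 5 precursors were not among the most variable. Their SD within a group, pooled over the groups, was 0.40 for mir-26b, 0.47 and 0.48 for the miR-26a copies, 0.61 for mir-101b and 0.66 for mir-101a, beside a median of 0.67 over all.

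The libraries in which these precursors were high, and those in which they were low, did not follow the age groups. All 5 were above their own mean in old 4 and young 4, and all 5 were below it in young 1 and young 3. The same libraries differed in the share taken by mir-486 and mir-3107, overlapping muscle-enriched precursors that dominate the table. This share of the summed linear value was 54% in old 4 and 32.4% in young 4, and 72.9% in young 1 and 66.5% in young 3. The other 4 libraries were at 69.1% (old 1), 57.8% (old 2), 62.2% (old 3) and 48.4% (young 2). Over the 8 libraries the Pearson correlation with the log2 value of mir-486 was -0.81 for mir-26a-1 (Spearman -0.88), -0.86 for mir-101a (-0.98), -0.75 for mir-101b (-0.76) and -0.59 for mir-26b (-0.55). These are descriptions over 8 points that share their library scaling. Without the 2 libraries farthest from the median of the member they were -0.76, -0.78, -0.51 and -0.19. After the median-ratio rescaling described next they were -0.28, -0.51, -0.71 and 0.13 over 8 libraries (Spearman -0.53, -0.46, -0.69 and 0.48). The sign thus turned for mir-26b, and mir-101b changed least. What part the share of mir-486 has in the levels of the members was not tested.

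Rescaling the libraries so that the median precursor is level (median-ratio) reduced the spread of the 5. The pooled SD within a group fell from 0.47 to 0.28 for mir-26a-1, from 0.40 to 0.27 for mir-26b, from 0.66 to 0.46 for mir-101a and from 0.61 to 0.28 for mir-101b. For all compared precursors the median SD went from 0.67 to 0.54. The age differences after rescaling were 0.06 for mir-26a-1, 0.30 for mir-26b, 0.19 for mir-101a and -0.22 for mir-101b. The 95% intervals were then narrower, from -0.42 to 0.55, from -0.19 to 0.79, from -0.69 to 1.08 and from -0.87 to 0.42 in the same order (limma, adjusted p = 0.971 for each).

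**Figure D4:**
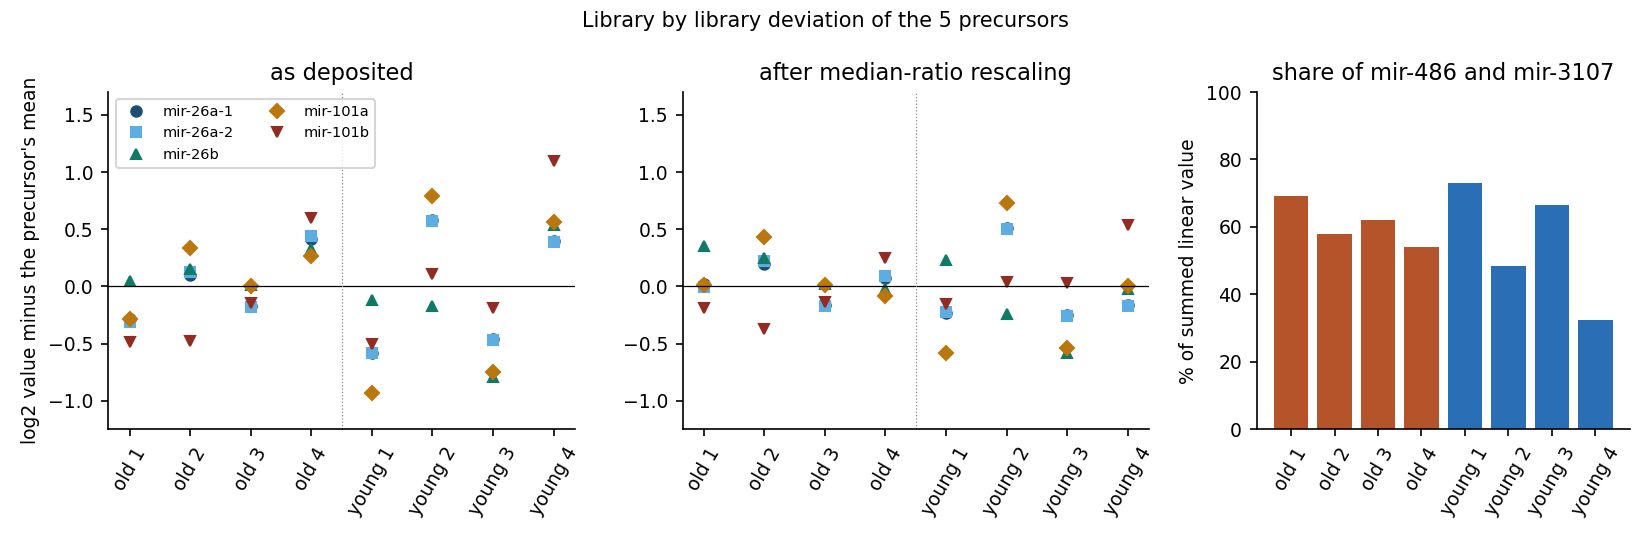
Left and middle, log2 value of each precursor minus its own mean over 8 libraries (y axis) by library (x axis), as deposited and after median-ratio rescaling; right, share of the summed linear value held by mir-486 and mir-3107 (percent). All 5 precursors are above their mean in old 4 and young 4 as deposited, where that share is 54% and 32.4%, and they scatter on both sides of 0 in those libraries after rescaling.

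After rescaling, miR-26a and mir-101a had the highest correlation among pairs of separate miRNAs. mir-26a-1 and mir-101a had a Pearson correlation of 0.95 as deposited and 0.90 after rescaling (Spearman 0.93 and 0.81, 8 libraries). Old 2 and young 2 were the highest libraries for both after rescaling, and r was 0.64 over the other 6. mir-26a-1 and mir-26b, which share a seed but not a gene, correlated at 0.57 as deposited and 0.05 after rescaling, and at 0.45 after rescaling without old 2 and young 2. The gap between these pairs thus rests in large part on those libraries. mir-101a and mir-101b correlated at 0.58 and -0.10. mir-26b and mir-101b correlated at 0.55 and -0.39 (Spearman 0.43 and -0.76), mir-26a-1 and mir-101b at 0.70 and -0.15, and mir-26b and mir-101a at 0.58 and 0.13. All points share their library scaling. In all, 10 pairs were computed.

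Differences between members of the same library do not change when each library is rescaled by 1 factor, although quantile normalization can change them. mir-26b minus mir-26a-1 was -1.58, -1.86, -1.73 and -2.0 for old 1 to old 4 and -1.45, -2.66, -2.24 and -1.77 for young 1 to young 4. The means were -1.792 ± 0.18 and -2.03 ± 0.53 (SD, n = 4 each), and all old values lay inside the range of the young ones. mir-101a minus mir-101b was -1.71, -1.10, -1.76 and -2.24 in old mice and -2.34, -1.22, -2.47 and -2.44 in young mice, with means of -1.702 ± 0.47 and -2.118 ± 0.60. Young 2 stood apart from the other young libraries here, at a value between those of old 1 and old 2. mir-26a-1 minus mir-101a ranged from 8.17 to 8.76, with means of 8.342 ± 0.18 in old mice and 8.47 ± 0.30 in young mice. How the authors' counting treats reads with a mismatch is not given in the sources used here, so reads of miR-26a and miR-26b, or of miR-101a and miR-101b, may in part be listed under each other.

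**Figure D5:**
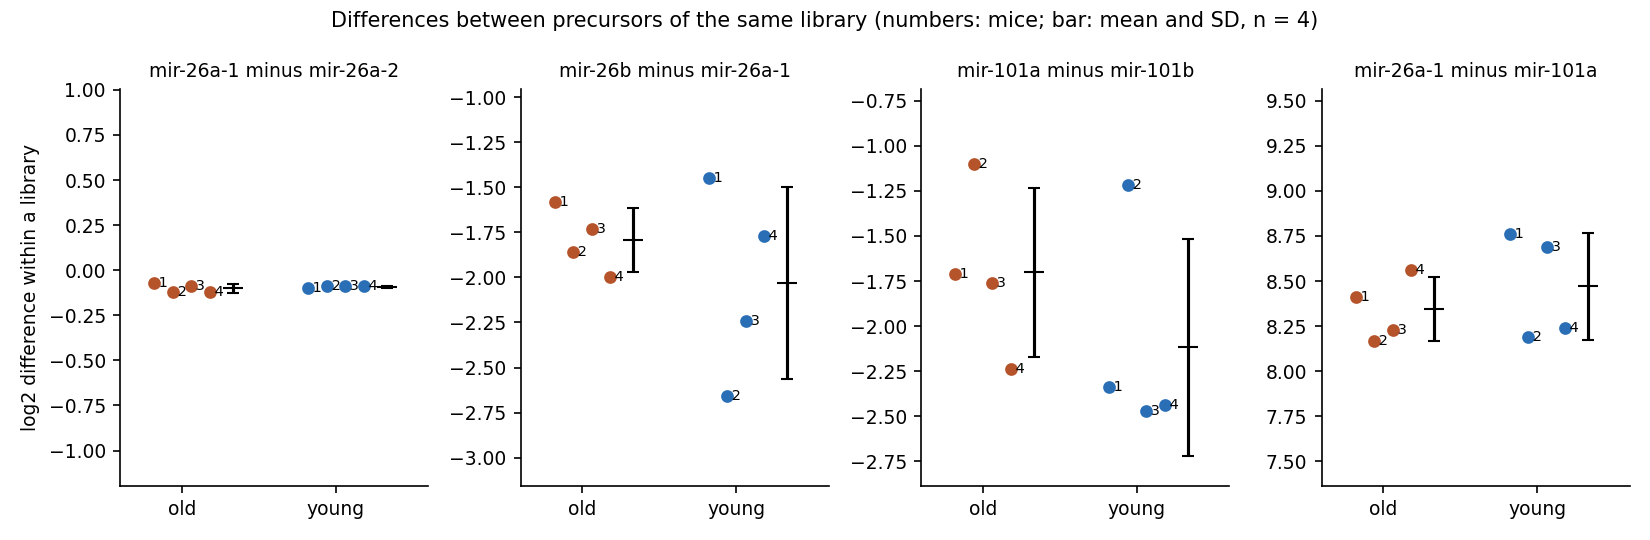
Log2 difference between 2 precursors of the same library (y axis; the span is equal in all panels) in old and young libraries; points are libraries with the number of the mouse, bars the mean and SD (n = 4). The miR-26a copies differ by -0.12 to -0.07, and young 2 at -1.22 stands apart from the other young libraries for mir-101a minus mir-101b.

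The precursors whose course over the libraries was most like that of mir-26a-2, the most abundant of the 5, were mir-125b-1 (Pearson r = 0.973 over 8 libraries), mir-181d (0.969) and mir-671 (0.957), beside a median of 0.44 over all other compared precursors. After median-ratio rescaling they were mir-181d (0.940), mir-125b-1 (0.877) and mir-744 (0.852), with a median of -0.02. For mir-101b they were mir-25 (0.975), mir-340 (0.965) and mir-126b (0.964), beside a median of 0.52, and the same 3 led after rescaling (0.898, 0.868 and 0.879). The Spearman correlations after rescaling were 0.86 for mir-25, 0.88 for mir-340 and 0.69 for mir-126b. As deposited, mir-101b also followed the library scaling, at r = 0.96 with the log2 factor that the median-ratio rescaling removes (8 libraries). mir-126b is an endothelial marker. The other one listed, mir-126a, read 3.43, 3.32, 3.46 and 4.34 in old mice and 2.96, 3.68, 3.07 and 5.11 in young mice. It lay slightly below mir-126b in every library and took the same course, so they are not taken as separate measurements. The part of endothelial RNA in the level of mir-101b was not tested. In such bulk libraries fewer cells of a type and less RNA per cell cannot be told apart.

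None of the other miRNAs reported to repress Ezh2 passed the threshold for age, and neither did any of the 359 compared precursors. Of 20 listed precursors 15 were compared, 10 with a higher and 5 with a lower mean in old mice, 0 past the threshold and a median difference of 0.01. The most abundant were let-7 precursors, a family that restrains growth and pluripotency genes. let-7b measured 15.59 ± 0.30 in old mice and 15.23 ± 0.55 in young mice (SD, n = 4 each), let-7c-1 14.99 ± 0.27 and 14.77 ± 0.46, let-7c-2 14.98 ± 0.27 and 14.77 ± 0.47, and let-7d 13.88 ± 0.33 and 13.88 ± 0.45. The listed copies of let-7a, let-7c, let-7f and mir-138 each give the same mature form, so the 15 are not separate measurements. mir-214, which lies in a negative loop with Ezh2 in muscle cells and is also a fibroblast marker, measured 12.71 ± 0.54 and 12.26 ± 0.58 (difference 0.45, SE 0.40, limma adjusted p = 0.995). mir-144, which shares 6 of the 7 seed bases of miR-101a-3p, was listed at 0 in all 8 libraries. This is the floor of the values and may stand for a few reads or none.

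miR-26a also belongs to the miRNAs reported to target Smad4, the target named in the series title for miR-431. The 5 others on this list were all compared, 4 with a higher and 1 with a lower mean in old mice and a median of 0.07. Of these, 0 passed the threshold, as did 0 of all 359. The lower one was mir-431, at 7.125 ± 2.02 in old mice and 8.932 ± 1.93 in young mice, with SDs well above the 0.31 and 0.59 of mir-26a-1. mir-483 measured 11.86 ± 1.24 and 11.51 ± 1.61, mir-130a 10.49 ± 0.27 and 10.48 ± 0.63, and mir-224 6.942 ± 0.20 and 6.87 ± 0.64. The remaining one, mir-146a, is named after its values were seen: it read 4.79, 5.60, 4.73 and 6.80 in old mice and 4.13, 4.46, 3.77 and 4.04 in young mice, and its groups did not overlap. Its difference of 1.38 (SE 0.54) had an unadjusted p of 0.03 and an adjusted p of 0.995 in limma.

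Library depth and cell type markers are given beside these values. On the RPKM reading the libraries held 25.1 to 39.5 M reads, and every young library was larger than every old one. Between 588 and 635 precursors per library were above 0. The summed log2 level of the muscle markers, held largely by mir-486, was 21.11 to 21.76 in old mice and 20.33 to 22.14 in young mice. mir-486 led them (21.41 ± 0.28 and 21.28 ± 0.81), followed by mir-206 (15.90 ± 0.17 and 15.72 ± 0.72). Of the 11 muscle markers 7 were compared, among them mir-133a-1 (13.34 ± 0.65 and 13.57 ± 1.25), mir-133a-2 and mir-133b, at 10.17 or above in every library, and the scarce mir-499 and mir-208b. The mir-1 precursors and mir-208a lay under the filter, mir-1a-1 at 0 to 3.22. Of the 5 blood markers, mir-144, mir-142 and mir-223 were listed at 0 in all libraries, and the list summed to 3.05 to 4.47 in old and 1.97 to 4.32 in young ones. Of this list only mir-150 was compared, and it was above 0 in every library, at 1.04 to 4.47. It averaged 3.748 ± 0.58 in old mice and 3.03 ± 1.45 in young mice (difference 0.72, SE 0.73, limma adjusted p = 0.995). The fibroblast and smooth muscle markers were present, at a summed level of 15.39 to 15.87 in old mice and 14.62 to 15.68 in young mice. Among them mir-143 was the most abundant (15.2 ± 0.31 and 14.79 ± 0.54), followed by mir-214. The old mean was higher for 6 of 6, beside 165 of all 359 compared precursors. These differences were 0.26 to 0.45 with SEs of 0.34 to 0.41, and the adjusted p was 0.995 for each (limma). The mir-199a copies on this list give the same mature form, so the 6 are not separate measurements. The 2 endothelial markers summed to 4.41 to 5.51 and 4.13 to 6.28, and the 7 epithelial ones, 2 of them at 0 throughout, to 5.30 to 8.12 and 6.10 to 7.65. The epithelial markers compared were mir-205 (5.935 ± 1.49 and 6.33 ± 0.75) and mir-203 (3.24 ± 0.42 and 3.723 ± 0.70). The part of any of these cell types in the values of the 5 precursors was not tested.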

How the data were processed

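The table the authors deposited lists 1181 miRNA precursors as log2 values in 8 libraries, to 2 decimals and with a floor of 0. A listed 0 may therefore stand for a few reads or none. BWA and the build mm10 are named per the submitters' processing notes, without a version or role; for counting, trimming and filtering the rule is not given in the sources used here. RNA came from a mirVana kit per the labels' protocols. The scale was inferred: for low values (up to 12 reads) the product of linear value and length was a whole number of reads within 0.1 of a read in 100% of 111 to 216 values per library, which is how RPKM behaves; the read numbers rest on this.

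The 359 precursors that reached a linear value of 10 in 4 or more libraries were compared by limma 3.58.1 (R 4.3.3; eBayes, trend in the mean) on the log2 values as deposited, old minus young, with Benjamini-Hochberg adjustment. Single precursors were also tested by exact permutation over the 70 splits. The fit was checked on simulated data. p-values measure the spread between these libraries, each taken as its own mouse. Other steps ran in Python 3.11.15 with scipy 1.17.1, pandas 2.3.3, numpy 2.4.6 and matplotlib 3.10.9.

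Members, lists and alternatives (filters, rescalings, pseudocounts of 1 and 10, limma settings, a replicate block, left-out libraries) were chosen with earlier results of these data known. Named are the members, mir-431, the most abundant precursors of each list (up to 4, or 2 for cell markers) and the 3 closest in course to the leading miR-26 and miR-101 precursors. Named outside this rule, with their values seen, are mir-101c, mir-3107, mir-146a, further muscle markers (mir-1, mir-133, mir-208 and mir-499 precursors) and the blood markers at 0 (mir-144, mir-142, mir-223). The same holds for the copies of let-7a, let-7f, mir-138 and mir-199a. Summing the miR-26a copies was added after seeing the data. Precursors were matched by name to RefSeq (GRCm38.p6, 1176 of 1181, all 359 compared); host genes and UTRs are from GENCODE vM21, the build of mm10.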

Additional observations from a re-analysis of the deposited data

Results flagged for a closer look

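Among 18 groups of 4 libraries checked for a far value (the 5 precursors and 4 differences between them, in old and in young libraries), 2 had one, where chance alone gives about 5% of groups. For mir-101a minus mir-101b, young 2 at -1.22 lay far above the other young libraries, of which the lowest was at -2.47; the gap was 0.896 of the range. For mir-26a-1 minus mir-26a-2, young 1 at -0.10 lay below the others at -0.09, which is a single step of the 2 decimals in the file.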

How the results depend on the processing

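Over the alternatives no age difference of the 5 precursors passed the threshold. mir-26b kept its sign in all 20, but many of them leave its difference at 0.27 by construction. Only the rescalings, array weights and left-out libraries could change that sign. When each library was left out in turn, the difference ranged from -0.16 to 0.23 for mir-26a-1, -0.15 to 0.24 for mir-26a-2, 0.05 to 0.49 for mir-26b, -0.13 to 0.45 for mir-101a and -0.50 to 0.07 for mir-101b, with a median over the 5 from -0.15 to 0.24. Without both old 3 and young 4, libraries known to stand apart at the Dlk1-Dio3 locus, mir-101b turned to 0.07, and 33 of 359 precursors passed (1 higher, 32 lower), 0 of them among the 5; these libraries were chosen on the outcome elsewhere. With the replicate number as a block, 0 precursors passed and 39 had an unadjusted p under 0.05, against 4 without it. The differences themselves cannot change in this balanced layout, such as 0.27 for mir-26b. Their SE fell from 0.35 to 0.24 for mir-26a-1, from 0.34 to 0.25 for mir-26b, from 0.52 to 0.42 for mir-101a and from 0.47 to 0.32 for mir-101b. Same-numbered libraries correlated in their deviations at r = -0.06, 0.43, 0.66 and 0.58, and 6 of 8 libraries correlated best with their own number. This is a hint of shared numbers from the data, not from the design; since 1 of 4 pairs was not over 0.1 and the labels state no pairing, the block was kept as an alternative. mir-101a was not compared under a mean linear value of at least 100. The scarce mir-101a (36.8 to 137.3 reads) has the widest interval of the 5.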
